A study of Mus musculus with 4 samples.

Results

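The genes examined here, all of Toll-like receptor sensing, were Tlr2, Tlr3, Tlr4, Tlr7, Tlr9, Tlr13, Cd14, Ly96 and Myd88, taken by name as 9 of the 16308 genes counted in every library. The libraries held single CD45+ leukocytes sorted from the muscularis externa, the muscle coat peeled from the small intestine, after intestinal manipulation, a surgical handling of the gut that inflames this layer. WT mice were C57BL/6J and CCR2 KO mice were Ccr2-/- (B6.129S4-Ccr2tm1Ifc/J), a whole-body loss of the chemokine receptor that brings monocytes from bone marrow to blood and tissue. All mice were 12 weeks old, and 1 library of pooled mice was made at 24 h and 1 at 72 h post-injury in each genotype. With 1 library per group no test was possible, and each comparison below is one between 2 libraries.

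Toll-like receptors are membrane proteins that recognise conserved microbial molecules and signal through an intracellular domain. Tlr2 and Tlr4 act at the cell surface, where Tlr2 binds bacterial lipoproteins, and Tlr4 binds lipopolysaccharide only with its partner Ly96 (MD-2) after Cd14 has handed the lipid over. Tlr3, Tlr7, Tlr9 and Tlr13 sense nucleic acids inside endosomes: double-stranded RNA, single-stranded RNA, unmethylated CpG DNA and bacterial ribosomal RNA, in that order. Myd88 is the adaptor that couples all of these receptors except Tlr3 to NF-κB.

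On GRCm38 the annotation (GENCODE vM21) places Tlr2 at chr3:83836272-83841767, Tlr3 at chr8:45395665-45411080, Tlr4 at chr4:66827584-66930284, Tlr7 at chrX:167304929-167330558, Tlr9 at chr9:106222598-106226883, Tlr13 at chrX:106143204-106160493, Ly96 at chr1:16688051-16709611 and Myd88 at chr9:119335934-119341411. Tlr4, Tlr9, Tlr13 and Ly96 lie on the plus strand, and the others of these 8 genes on the minus strand. RefSeq promoter windows on GRCm38.p6 were matched for 5 of the 9 genes (Tlr2, Tlr3, Tlr9, Tlr13 and Myd88), not for Tlr4, Tlr7, Cd14 and Ly96. The bases before the transcript start that lie in no annotated exon are shown for Tlr2 and Tlr13, receptors whose level was highest in neutrophil-like cells, and for Myd88, which was read at 20 CPM or more in all classes of 20 cells or more. Capitals mark matches to a searched motif, and each sequence runs 5′ to 3′ on the gene's own strand. The Myd88 window lies within the annotated span of that gene, before the start of the RefSeq transcript and outside all annotated exons.
Tlr2 (91 bases, chr3:83841768-83841858, minus strand): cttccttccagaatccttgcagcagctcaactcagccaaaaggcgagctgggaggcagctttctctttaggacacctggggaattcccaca
Tlr13 (179 bases, chrX:106143025-106143203, plus strand): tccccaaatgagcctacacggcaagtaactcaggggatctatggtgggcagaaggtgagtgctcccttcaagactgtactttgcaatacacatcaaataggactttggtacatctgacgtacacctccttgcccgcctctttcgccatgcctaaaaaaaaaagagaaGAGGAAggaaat
Myd88 (227 bases, chr9:119340042-119340268, minus strand): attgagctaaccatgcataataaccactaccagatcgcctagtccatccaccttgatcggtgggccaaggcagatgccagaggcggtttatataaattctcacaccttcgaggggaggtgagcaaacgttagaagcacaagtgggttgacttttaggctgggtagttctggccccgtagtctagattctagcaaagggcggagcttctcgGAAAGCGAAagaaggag
Both strands were searched for 5 motifs, the PU.1/ETS core GAGGAA, the IRF motif GAAANNGAA, the C/EBP motif TTGCNNAA, the NF-κB motif GGGANTTTC and the AP-1 motif TGANTCA. The Tlr13 window held GAGGAA, as did 17.0% of the 27025 promoters over the same length, and the Myd88 window held GAAANNGAA, as did 6.51% of them. None of these 5 strings matched in the Tlr2 window, and other forms of the same sites were not searched for in any window. The Tlr3 window is not shown because annotated exons cover it. The Tlr9 window, not shown because the gene was hardly read, held GAGGAA and TGANTCA, as did 23.1 and 6.87% of promoters over its length. A match describes the letters of a window and is no evidence of binding.

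Cells numbered 1674 and 1774 in the WT and CCR2 KO libraries of 24 h, and 1315 and 1048 in those of 72 h, with 9736725 to 21206308 UMIs (counted RNA molecules) per library, and no pair of libraries shared more than 1 cell barcode. After 14 cells with stromal or other non-immune markers were removed, 5797 cells were gated by marker genes into classes, which are named for those markers ("-like") and include none of the 9 genes in their definition. Monocyte/macrophage-like cells (mono/Mφs) made up 76.3, 12.2, 69.5 and 12.96% of the cells, and neutrophil-like cells 17.98, 72.3, 10.7 and 38%, in the order in which the cell numbers above name the libraries. All lists of 4 values below follow that order, and lists of 3 leave out WT 24 h. Ccr2 in mono/Mφs stood at 758 and 1065 CPM (UMIs per 1000000 UMIs of a class) in the WT libraries and at 95.7 and 83.7 CPM in the CCR2 KO libraries, in the direction of the labels. The genotypes thus differed in the cells collected, and levels are therefore compared within a class. Mono/Mφs had a median of 14212 to 15849 UMIs per cell and neutrophil-like cells 2060 to 3330.5, so CPM compares a gene's share of a cell's RNA, not copies per cell. Intervals are 95% intervals of counting error alone.

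Cd14 (chr18:36725067-36726798, minus strand), the co-receptor that binds lipopolysaccharide, took its largest share of RNA in neutrophil-like cells in all 4 libraries. Its level there was 3062, 2886, 1861 and 2249 CPM, against 587, 721, 668 and 269 CPM in mono/Mφs. The neutrophil-like level exceeded that of mono/Mφs by 2.38 (2.32 to 2.45), 2.0 (1.94 to 2.06), 1.48 (1.36 to 1.59) and 3.06 (2.93 to 3.19) on the log2 scale. Per cell, however, the difference shrank or turned round, with 7.74, 9.08, 4.59 and 8.79 Cd14 UMIs in a neutrophil-like cell and 8.87, 12.1, 9.82 and 4.15 in a mono/Mφ. CCR2 KO at 72 h was thus the only library of the 4 in which a neutrophil-like cell carried more Cd14 UMIs on average than a mono/Mφ. Neutrophil-like cells with 2 or more Siglecf UMIs, in which the eosinophil genes Ccr3, Il5ra, Prg2, Ear6 and Alox15 were at 0 and which are called Siglecf granulocytes here, numbered 46, 42 and 167 and held 1794, 1155 and 1177 CPM of Cd14. These levels lay below the neutrophil-like ones, at log2 ratios of -0.68 (-0.87 to -0.51), -0.68 (-0.97 to -0.42) and -0.93 (-1.05 to -0.82). Cells with 1 Siglecf UMI stayed in the neutrophil-like class, 143, 34 and 104 of them in these libraries. The 2 classes are therefore not cleanly parted in this or any later comparison between them.

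Outside these myeloid classes little Cd14 was read. Type 2 dendritic-like cells (cDC2) held 57.8, 10.2, 42.5 and 25.9 CPM, and T-like cells 5.46, 13.3 and 3.41 CPM. The 95.1 CPM of NK-like cells in CCR2 KO 24 h came from 14 UMIs, of which 12 lay in 1 cell. The cDC2 values rest on 33, 11, 56 and 48 UMIs, and CCR2 KO lay below WT, at a log2 ratio of -2.46 (-3.64 to -1.48) at 24 h and -0.71 (-1.30 to -0.13) at 72 h. In the same cDC2 the mono/Mφ markers summed to 3252 CPM in WT and 2125 CPM in CCR2 KO at 24 h and the mature dendritic markers to 59.5 and 383 CPM, against 2462 and 2171 CPM and 174.5 and 218 CPM at 72 h, and their part in the Cd14 values was not tested. With each cell thinned to 1000 UMIs, which left out 18, 16, 7 and 25 neutrophil-like cells and 9, 4, 10 and 6 mono/Mφs, Cd14 was found in 74.6, 68.8, 56.7 and 58.2% of neutrophil-like cells and in 35.1, 40.8, 43.5 and 20.2% of mono/Mφs. The same share in T-, NK- and innate lymphoid-like cells together, which should lack the gene, was 2 of 107 cells (1.87%, exact interval 0.23 to 6.59%) in CCR2 KO 24 h and 0 of 20, 0 of 72 and 0 of 156 cells in WT 24 h, WT 72 h and CCR2 KO 72 h, so that shares of up to 15, 4.17 and 1.92% are allowed, at a median of 4942 to 7313 UMIs before thinning. Before thinning the shares were 79.4, 81.9, 63.8 and 72.2% of neutrophil-like cells and 86.2, 84.7, 94.2 and 71.9% of mono/Mφs, beside 6.48, 6.85 and 2.56% of the lymphoid cells.

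**Figure D1:**
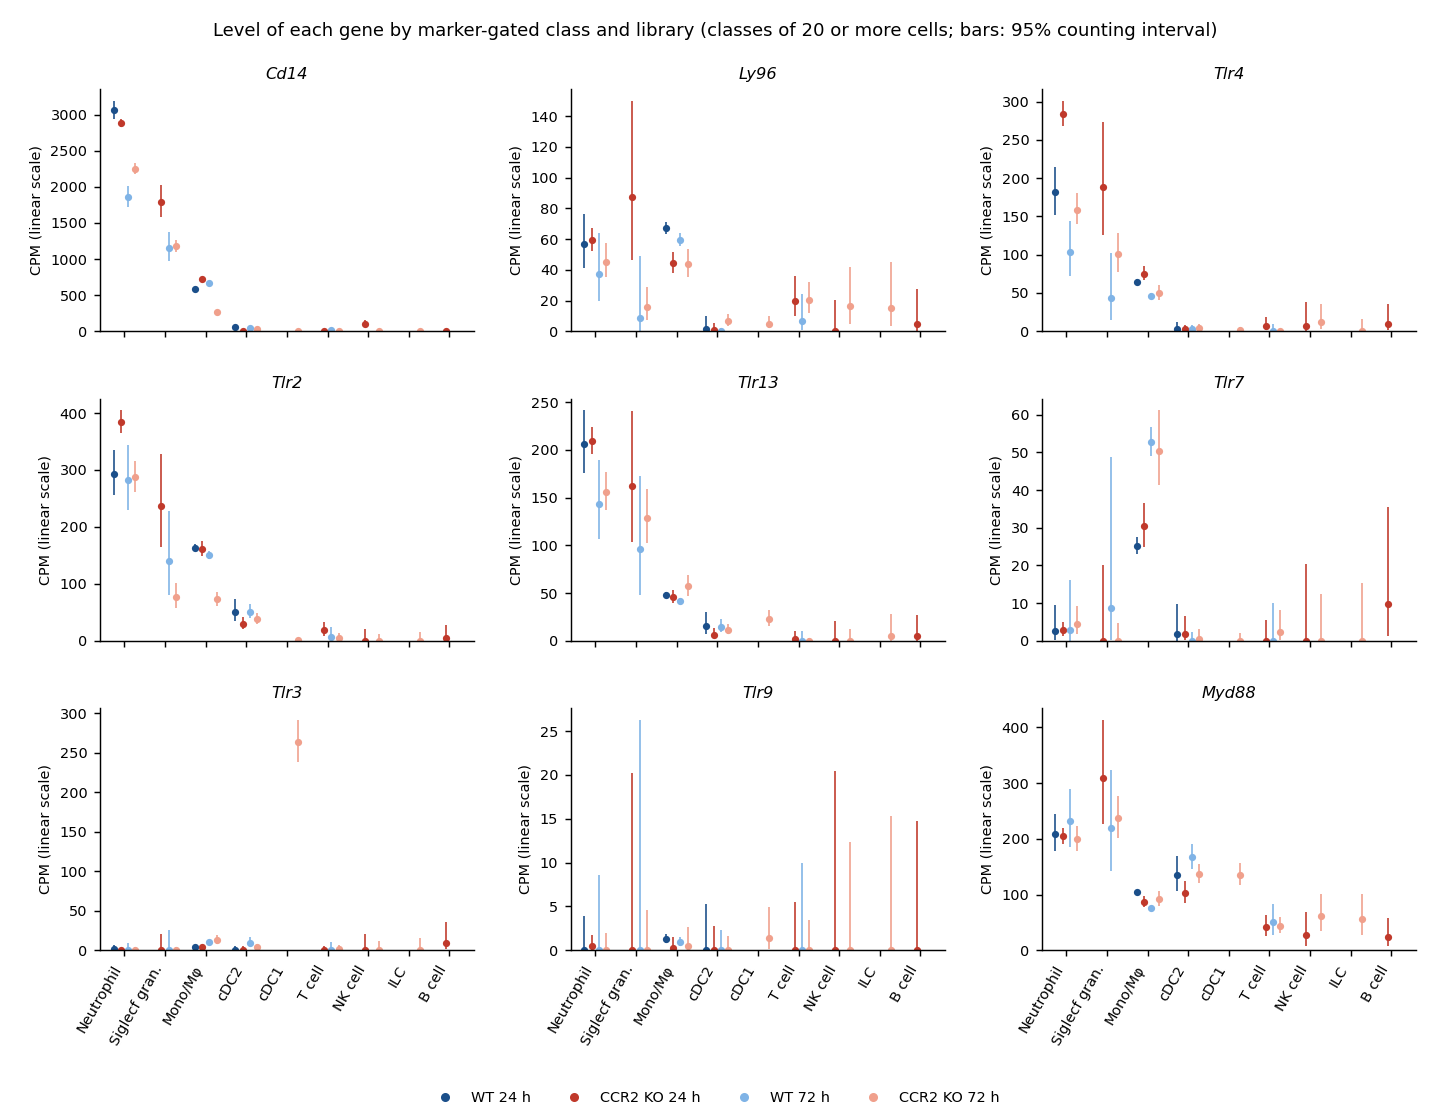
Level of each gene (CPM, linear axes that differ between panels) in each marker-gated class with 20 or more cells, with 1 point per library and bars of 95% counting error. Cd14, Tlr4, Tlr2 and Tlr13 stood highest in neutrophil-like cells, Tlr7 in mono/Mφs, and Tlr3 in the type 1 dendritic-like cells (cDC1) of CCR2 KO 72 h, the library where that class passed 20 cells.

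Tlr4, the lipopolysaccharide receptor, was like Cd14 highest in neutrophil-like cells in every library. Neutrophil-like cells held 181, 284, 104 and 159 CPM and mono/Mφs 64.9, 75.2, 46.4 and 50 CPM, so the former lay higher by 1.49 (1.22 to 1.74), 1.91 (1.72 to 2.11), 1.18 (0.63 to 1.64) and 1.66 (1.33 to 2.01) on the log2 scale. Per cell the order was the reverse in every library, with 0.46, 0.89, 0.26 and 0.62 Tlr4 UMIs in a neutrophil-like cell and 0.98, 1.27, 0.68 and 0.77 in a mono/Mφ. Siglecf granulocytes stood at 189, 43.8 and 101 CPM, below the neutrophil-like cells in the CCR2 KO libraries, at log2 ratios of -0.56 (-1.18 to -0.05) at 24 h and -0.65 (-1.07 to -0.26) at 72 h. In WT 72 h, with 5 Tlr4 UMIs in the Siglecf granulocytes, the interval of the difference reached past 0. In cDC2 the level lay between 2.78 and 4.85 CPM.

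Ly96, without which Tlr4 does not bind lipopolysaccharide, did not follow Tlr4 and Cd14. Its level was 67.1, 44.2, 59.4 and 43.8 CPM in mono/Mφs and 56.5, 59.3, 37.4 and 45.2 CPM in neutrophil-like cells. The class with the higher value differed between libraries, and the interval of the difference reached past 0 in 3 of the 4, the exception being CCR2 KO 24 h with neutrophil-like cells higher by 0.42 (0.13 to 0.72) on the log2 scale. T-like cells of the CCR2 KO libraries held 20 and 20.4 CPM of Ly96, whereas cDC2 held 0.93 and 6.47 CPM there. Siglecf granulocytes held 87.7, 8.75 and 15.5 CPM, from 13, 1 and 10 UMIs.

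Tlr2, the lipoprotein receptor, was again highest in neutrophil-like cells, with 293, 385, 282 and 288 CPM. Mono/Mφs held 164, 162, 151 and 72.6 CPM, and cDC2 50.8, 29.7, 50.8 and 38.3 CPM. This order is one of shares of RNA, since the median neutrophil-like cell held 0 Tlr2 UMIs and the median mono/Mφ 1 in every library. Tlr2 UMIs numbered 223, 1544, 98 and 446 in 301, 1276, 141 and 396 neutrophil-like cells. In 1278, 215, 914 and 135 mono/Mφs they numbered 3164, 586, 2026 and 151. The first 3 mono/Mφ libraries lay between 151 and 164 CPM, and CCR2 KO 72 h stood apart below them. T-like cells held 18.2, 6.67 and 5.68 CPM. Siglecf granulocytes held 236, 140 and 77.5 CPM, lower than the neutrophil-like cells of the same library at log2 ratios of -0.69 (-1.23 to -0.22), -0.97 (-1.87 to -0.24) and -1.88 (-2.35 to -1.47).

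Among the endosomal receptors, Tlr13 had its highest level in neutrophil-like cells in every library, as did Cd14, Tlr4 and Tlr2. Neutrophil-like cells held 206, 209, 144 and 156 CPM of this receptor for bacterial ribosomal RNA and mono/Mφs 47.7, 45.9, 41.4 and 57.2 CPM, a difference of 2.12 (1.86 to 2.36), 2.19 (1.95 to 2.44), 1.81 (1.35 to 2.22) and 1.44 (1.12 to 1.77) on the log2 scale. Per cell, 0.52, 0.66, 0.35 and 0.61 Tlr13 UMIs were read in a neutrophil-like cell and 0.72, 0.77, 0.61 and 0.88 in a mono/Mφ. Siglecf granulocytes, at 162, 96.3 and 129 CPM, did not differ from neutrophil-like cells beyond counting error in any of the 3 libraries. The cDC1 of both 72 h libraries held 22.3 and 22.7 CPM.

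Tlr7, the receptor for single-stranded RNA, was instead a gene of mono/Mφs. They held 25.2, 30.4, 52.7 and 50.5 CPM, while neutrophil-like cells stayed between 2.63 and 4.52 CPM. Mono/Mφs accounted for 99.4, 84.6, 99.02 and 76.6% of all Tlr7 UMIs of a library. In CCR2 KO 72 h, 16 of the 137 Tlr7 UMIs (11.7%, exact interval 6.83 to 18.3%) lay in 7 plasmacytoid dendritic-like cells, a cell type known for Tlr7 and Tlr9. Those 7 cells held 101044 UMIs in all, while the 135 mono/Mφs of that library held 105 Tlr7 UMIs among 2079936. The Tlr7 level was thus higher in the plasmacytoid dendritic-like cells, a class too small to be ranked here.

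Tlr3, the receptor for double-stranded RNA, marked cDC1, the Xcr1- and Clec9a-bearing dendritic cells that cross-present antigen. It stood at 250 CPM in the 19 cDC1 of WT 72 h and at 264 CPM in the 39 of CCR2 KO 72 h, a log2 difference of 0.08 (-0.22 to 0.38). All 19 and 36 of the 39 cells carried a Tlr3 UMI at full depth, and 3 and 7 of them (15.8 and 17.9%) after thinning to 1000 UMIs. Mono/Mφs held 4.71, 3.87, 9.91 and 12.98 CPM, and neutrophil-like cells 1, 0, 0 and 1 UMIs. Among all Tlr3 UMIs the cDC1 held 14 of 106, 27 of 45, 123 of 275 and 384 of 423, although there were 6, 4, 19 and 39 such cells. Tlr9 was hardly read, with 24, 3, 12 and 4 UMIs in a whole library, and is not compared further.

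Myd88, the shared adaptor, was read in lymphoid as well as myeloid classes. Siglecf granulocytes held 310, 219 and 237 CPM, neutrophil-like cells 209, 205, 233 and 200 CPM, cDC2 135, 103, 167 and 137 CPM, and mono/Mφs 104, 86.8, 75.6 and 91.8 CPM. cDC1 stood at 120 and 136 CPM in the 72 h libraries and T-like cells at 41.8, 50 and 44.3 CPM. Siglecf granulocytes lay above the neutrophil-like cells by 0.61 (0.14 to 1.03) on the log2 scale in CCR2 KO 24 h, and did not differ from them beyond counting error in the other libraries. Per cell, mono/Mφs carried 1.57, 1.46, 1.11 and 1.42 Myd88 UMIs and neutrophil-like cells 0.53, 0.65, 0.57 and 0.78.

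The UMIs of the same receptors lay mostly in different cells in the WT and CCR2 KO libraries. In the WT libraries 82.0 and 91.0% of Cd14 UMIs lay in mono/Mφs, while 79.8 and 70.9% lay in neutrophil-like cells in the CCR2 KO libraries at 24 h and 72 h. Tlr4 and Tlr2 shifted alike, with 9.86 and 5.33% of Tlr4 UMIs in neutrophil-like cells of the WT libraries and 78.3 and 56.2% in those of CCR2 KO, and 6.47 and 4.39% against 69.2 and 59.8% for Tlr2. Most Tlr7 UMIs lay in mono/Mφs in all 4 libraries, and neutrophil-like cells held 11 of the 130 in CCR2 KO 24 h. In such shares the number of cells of a class and the UMIs per cell cannot be told apart.

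**Figure D2:**
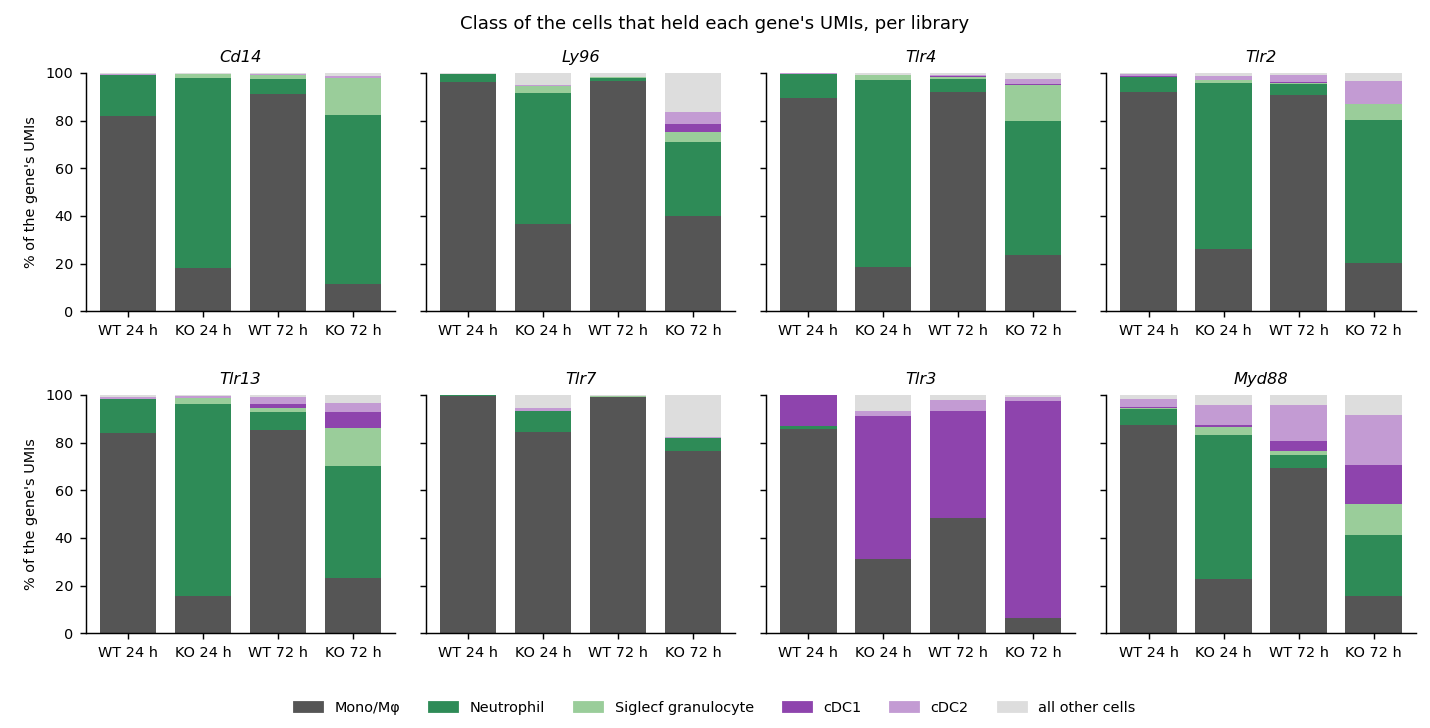
Share of each gene's UMIs (percent, stacked to 100) by class of the cell that held them, for each library, without Tlr9. Neutrophil-like cells held 16.9 and 6.56% of Cd14 UMIs in WT and 79.8 and 70.9% in CCR2 KO, whereas Tlr7 came from mono/Mφs in all 4 libraries.

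Within mono/Mφs, ratios between 2 libraries were taken with a prior of 0.5 UMI, and a gene counted as past the fold where the ratio passed 1.5-fold and 1 of the 2 levels reached 20 CPM. Of the 9 genes 7 were measured at that level, all but Tlr3 and Tlr9. At 24 h, CCR2 KO against WT, 0 of the 7 were higher and 1 was lower, where 6.02% of 5861 genes were higher and 5.66% lower. That gene was Ly96, at a log2 ratio of -0.60 (-0.85 to -0.36), which lies next to the limit of 0.585, and it did not pass the fold under 3 of the alternatives. Cd14 was higher in CCR2 KO by 0.30 (0.24 to 0.36), with 1 of the 215 cells holding 6.22% of its UMIs, and Tlr2 and Tlr13 differed by -0.01 and -0.05. Among mono/Mφs of 1 cluster, in a clustering of all cells made without the 9 genes, the Cd14 ratio was 0.12 (0.01 to 0.23) in cluster 0, 0.67 (0.59 to 0.76) in cluster 3 and -1.06 (-1.29 to -0.82) in cluster 10, clusters that held 52.7, 35.05 and 2.03% of the WT and 28.4, 41.9 and 23.7% of the CCR2 KO mono/Mφs. In the same clusters the Tlr2 ratio was -0.69 (-0.98 to -0.43), 0.32 (0.14 to 0.49) and -0.49 (-0.92 to -0.04), so the small Tlr2 ratio of the class was not that of each cluster. The median ratio was -0.01 over the 7 genes and -0.07 over all genes.

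At 72 h Cd14 and Tlr2 were lower in CCR2 KO mono/Mφs than in WT. The levels of 668 against 269 CPM for Cd14 and 151 against 72.6 CPM for Tlr2 gave log2 ratios of -1.31 (-1.44 to -1.19) and -1.05 (-1.30 to -0.82). No other member passed 1.5-fold, so 2 of 7 were lower, where 7.83% of 6428 genes were lower and 16.2% higher. The median ratio was -0.06 over the 7 genes and 0.13 over all genes. Tlr4, which Cd14 serves, stood at 50 against 46.4 CPM (0.11, -0.21 to 0.41, and -0.05 under TMM scaling), Tlr7 at 50.5 against 52.7 CPM and Tlr13 at 57.2 against 41.4 CPM (0.47, 0.17 to 0.75). The median cell held 2 Cd14 UMIs in CCR2 KO 72 h and 6 in WT 72 h at nearly equal depth, 14236 and 14212 UMIs, and in cells thinned to 1000 UMIs Tlr2 was found in 5 of 129 (3.88%, 1.27 to 8.81%) against 127 of 904 (14.0%, 11.9 to 16.5%).

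Several other values moved with this difference. The 18 mono/Mφ markers of the gate summed to 63250 CPM in WT 72 h and 25390 CPM in CCR2 KO 72 h, all 18 at 20 CPM or more in both. The 15 neutrophil markers summed to 361 and 394 CPM with 0 and 1 of them at 0, and the 9 cDC2 markers to 658 and 427 CPM. The median mitochondrial share was 4.28 and 5.90%, and 6 genes known to respond to tissue dissociation summed to 4204 and 1675 CPM. The gate markers include Ccr2 and genes of mature Mφs such as C1qa and Mrc1. The clusters that held the mono/Mφs also differed. In WT 72 h 528 of the 914 cells lay in cluster 4 and 159 in cluster 11, where CCR2 KO 72 h had 4 and 2 cells. Of the 135 CCR2 KO cells 61 lay in cluster 10 and 26 in cluster 9, beside 53 and 69 of WT. A further 18 of the CCR2 KO cells (13.3%) and 29 of the WT cells (3.17%) lay in cluster 13, whose markers were those of cDC1, and with clusters in place of the gate the ratios were -1.16 for Cd14 and -1.02 for Tlr2. Within cluster 10 Cd14 stood at 224 CPM in CCR2 KO against 586 in WT (-1.39, -1.64 to -1.14) and Tlr2 at 64.4 against 151 CPM (-1.22, -1.72 to -0.74). Within cluster 9 Cd14 stood at 638 against 910 CPM (-0.50, -0.89 to -0.16), and the Tlr2 interval reached past 0 with 7 UMIs in CCR2 KO. The part of the marker, mitochondrial and dissociation values in the Cd14 and Tlr2 difference was not tested. With at most 5% mitochondrial UMIs per cell the ratios were -1.32 for Cd14 and -1.18 for Tlr2, and in cells with at most 1 UMI of the neutrophil genes S100a8 and S100a9 they were -1.05 and -0.88.

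The difference was also present within subsets of mono/Mφs, which were drawn with genes that the study itself names. The paper took its subsets from a time series that included naïve mice and matched them to a further dataset of WT and CCR2 KO cells. The subsets here divide the same cells of the same libraries once more and so are no independent evidence. In the Cd206 subset (Mrc1, Selenop, Igf1, Trem2, Stab1; 398 WT and 36 CCR2 KO cells) Cd14 was 635 and 198 CPM and Tlr2 152 and 39.01 CPM. In the Cx3cr1 subset (98 and 24 cells) Cd14 was 656 and 227 CPM and Tlr2 122 and 71.0 CPM. In the Arg1 subset (143 and 28 cells) the gap was narrowest for Cd14, 736 and 563 CPM, a log2 ratio of -0.38 (-0.63 to -0.15) against -1.67 (-1.95 to -1.42) in the Cd206 subset, though the CCR2 KO Arg1 cells had a median of 7815 UMIs. Cells in no subset (156 and 32) held 667 and 211 CPM of Cd14. Tlr4 lay the other way in the Arg1 subset, at 99.5 CPM in CCR2 KO against 51.4 CPM in WT (0.97, 0.31 to 1.55). The same subset name did not stand for the same clusters, since 333 of the 398 WT Cd206 cells lay in cluster 4 and 25 of the 36 CCR2 KO ones in cluster 10, and 75 of the 143 WT Arg1 cells in cluster 11 and 17 of the 28 CCR2 KO ones in cluster 9.

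**Figure D3:**
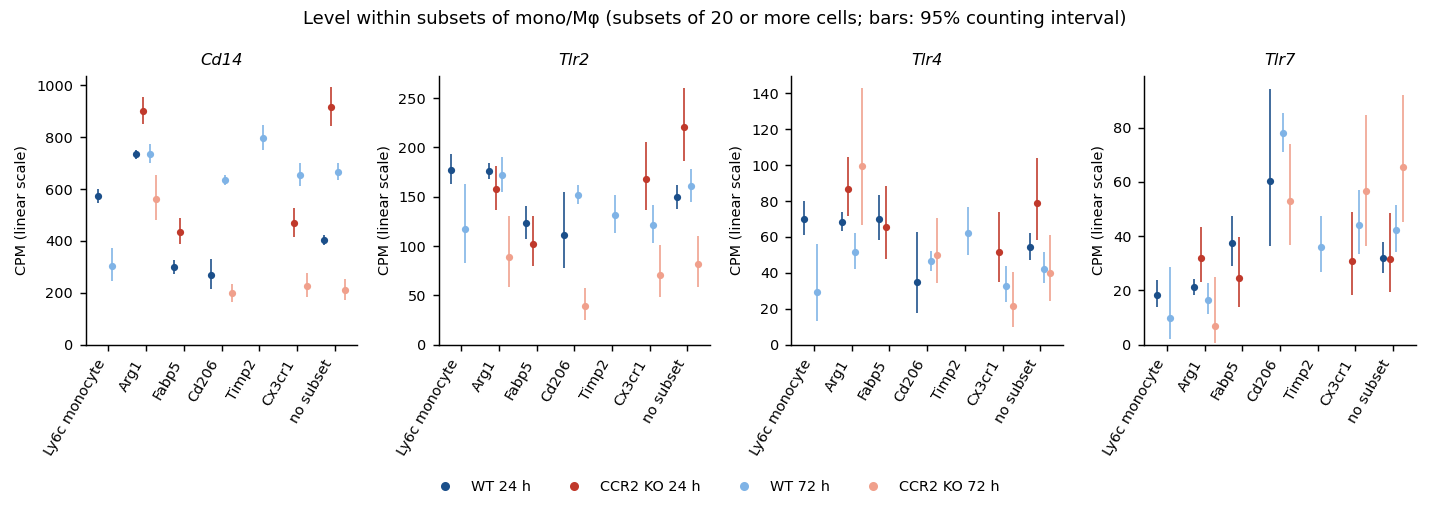
Levels of Cd14, Tlr2, Tlr4 and Tlr7 (CPM, linear axes) within subsets of mono/Mφs of 20 or more cells, with 1 point per library and bars of 95% counting error. CCR2 KO 72 h lay below WT 72 h for Cd14 and Tlr2 in each of the 3 named subsets that both held, and Tlr7 was highest in the Cd206 subset of WT 72 h, at 78.1 CPM.

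From 24 h to 72 h in WT, Tlr7 was the member past the fold in mono/Mφs. It went from 25.2 to 52.7 CPM, a log2 ratio of 1.06 (0.90 to 1.23), so that 1 of 7 was higher and 0 lower, where 16.2% of 6212 genes were higher and 17.0% lower. In CCR2 KO it went from 30.4 to 50.5 CPM (0.73, 0.33 to 1.13), which did not pass the fold under TMM scaling (0.49), with every cell weighed the same (0.42) or with clusters in place of the gate (0.58). In the same comparison Cd14 went from 721 to 269 CPM (-1.42, -1.55 to -1.29) and Tlr2 from 162 to 72.6 CPM (-1.15, -1.43 to -0.90). There 1 of 7 was higher and 2 lower, where 23.6% of 6453 genes were higher and 12.1% lower. Tlr4 stood lower at 72 h in both genotypes without passing the fold, at -0.48 (-0.63 to -0.34) for WT and at -0.585 (-0.93 to -0.26) for CCR2 KO, the latter just short of the limit. The median ratio of the 7 genes was -0.18 in WT and -0.01 in CCR2 KO, beside -0.03 and 0.15 over all genes. Each library serves in 2 of the 4 comparisons, so their values are given side by side.

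The Tlr7 level also differed between subsets of the same library. In WT 72 h it was 78.1 CPM in the Cd206 subset, 44.1 in the Cx3cr1 subset, 36.0 in the Timp2 subset and 16.4 in the Arg1 subset. In WT 24 h it was 60.4 CPM in 29 Cd206 cells, 37.4 in the Fabp5 subset, 21.3 in the Arg1 subset and 18.4 in the Ly6c monocyte subset. Cd206 cells were 2.27% of mono/Mφs in WT 24 h and 43.5% in WT 72 h, and how much of the Tlr7 difference this carries was not tested. Cd14 had another order, highest in the Timp2 (798 CPM) and Arg1 (736 CPM) subsets of WT 72 h.

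In neutrophil-like cells 6 of the 9 genes were measured, Tlr7 being below 20 CPM there. Tlr4 passed the fold in each of the 4 comparisons. It was higher in CCR2 KO than in WT by 0.64 (0.39 to 0.91) at 24 h, 284 against 181 CPM, and by 0.60 (0.11 to 1.17) at 72 h, 159 against 104 CPM. It was lower at 72 h than at 24 h, at a log2 ratio of -0.79 (-1.38 to -0.27) for WT and of -0.83 (-1.04 to -0.64) for CCR2 KO. The WT 72 h value rests on 36 UMIs in 141 cells, and the genotype ratios, near the limit, did not pass it with every cell weighed the same at 24 h (0.49) or with clusters in place of the gate at 72 h (0.48). The clusters again differed, with 48 of 301 WT and 523 of 1276 CCR2 KO neutrophil-like cells of 24 h in cluster 2, 16 and 245 in cluster 6, 124 and 360 in cluster 1 and 105 and 111 in cluster 7. Within a cluster the Tlr4 ratio between genotypes at 24 h was 0.15 (-0.36 to 0.72) in cluster 1, 0.58 (-0.02 to 1.34) in cluster 2 and 0.81 (0.41 to 1.24) in cluster 7. The 15 neutrophil markers summed to 124200 CPM in WT and 79380 CPM in CCR2 KO at 24 h and to 92560 and 134100 CPM at 72 h, all 15 at 20 CPM or more, and their part in the Tlr4 values was not tested. Between times in CCR2 KO, Tlr4 differed by 0.05 (-0.52 to 0.55) in cluster 1, -0.86 (-1.42 to -0.38) in cluster 6 and -0.93 (-1.32 to -0.57) in cluster 7, and a cluster rich in Siglecf (cluster 5) held 36 of the neutrophil-like cells at 24 h and 193 of 396 at 72 h. Cd14 was lower at 72 h in WT, at -0.72 (-0.85 to -0.59), and in CCR2 KO at -0.36 (-0.42 to -0.31), which did not pass the fold. With clusters in place of the gate these were -0.30 and -0.02. Within a cluster of CCR2 KO cells Cd14 stood higher at 72 h by 0.34 (0.18 to 0.49) in cluster 1 and 0.51 (0.39 to 0.62) in cluster 6. It differed by 0.13 (-0.22 to 0.52) in cluster 5 and was lower only in cluster 7, at -1.06 (-1.15 to -0.97). In WT it differed by 0.24 (-0.0014 to 0.47) in cluster 1. The lower Cd14 of the whole class was thus not that of each cluster.

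The counts in neutrophil-like cells were thus 1 higher and 0 lower of 6 in CCR2 KO against WT at 24 h, where 14.3% of 4370 genes were higher and 9.61% lower, and the same at 72 h, where 9.82% of 5325 were higher and 15.0% lower. From 24 h to 72 h, 0 were higher and 2 lower in WT, where 43.0% of 5160 genes were higher and 9.38% lower, and 0 higher and 1 lower in CCR2 KO, where 30.6% of 4961 were higher and 9.47% lower. The median ratio of the 6 genes was 0.04, 0.17, -0.54 and -0.40 in these comparisons, beside 0.06, -0.12, 0.46 and 0.26 over all genes. TMM scaling, which sets the bulk of genes equal, made 4 of 6 lower in WT and 5 of 6 in CCR2 KO between times, since it moved all neutrophil-like ratios by 0.52 in WT and 0.44 in CCR2 KO downward on the log2 scale, and those of mono/Mφs by 0.24 at most. With TMM scaling Cd14 lay at -1.24 and -0.80 and Tlr13 at -1.03 and -0.87 between times in neutrophil-like cells, and Myd88 changed sign in WT, from 0.16 to -0.36.

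Other granulocytes and dendritic cells held fewer UMIs. In Siglecf granulocytes of CCR2 KO, Tlr2 went from 236 CPM at 24 h to 77.5 CPM at 72 h (-1.61, -2.26 to -0.94), Tlr4 from 189 to 101 CPM (-0.92, -1.57 to -0.21) and Cd14 from 1794 to 1177 CPM (-0.61, -0.81 to -0.40). Ly96 went from 87.7 to 15.5 CPM (-2.48, -3.85 to -1.20), from 13 and 10 UMIs. Between genotypes at 72 h, Tlr2 and Tlr4 of these cells differed by -0.88 (-1.69 to 0.06) and 1.08 (-0.09 to 2.87), which counting error alone could span. The cDC1 carried few UMIs of the surface receptors, with 14.2 and 2.06 CPM of Cd14 and 14.2 and 1.37 CPM of Tlr2 in the 72 h libraries, from 7, 3, 7 and 2 UMIs. All 7 Cd14 UMIs of WT 72 h lay in 1 cell, and the mono/Mφ markers summed to 4315 CPM in the WT cDC1 and 956 CPM in the CCR2 KO ones.

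**Figure D4:**
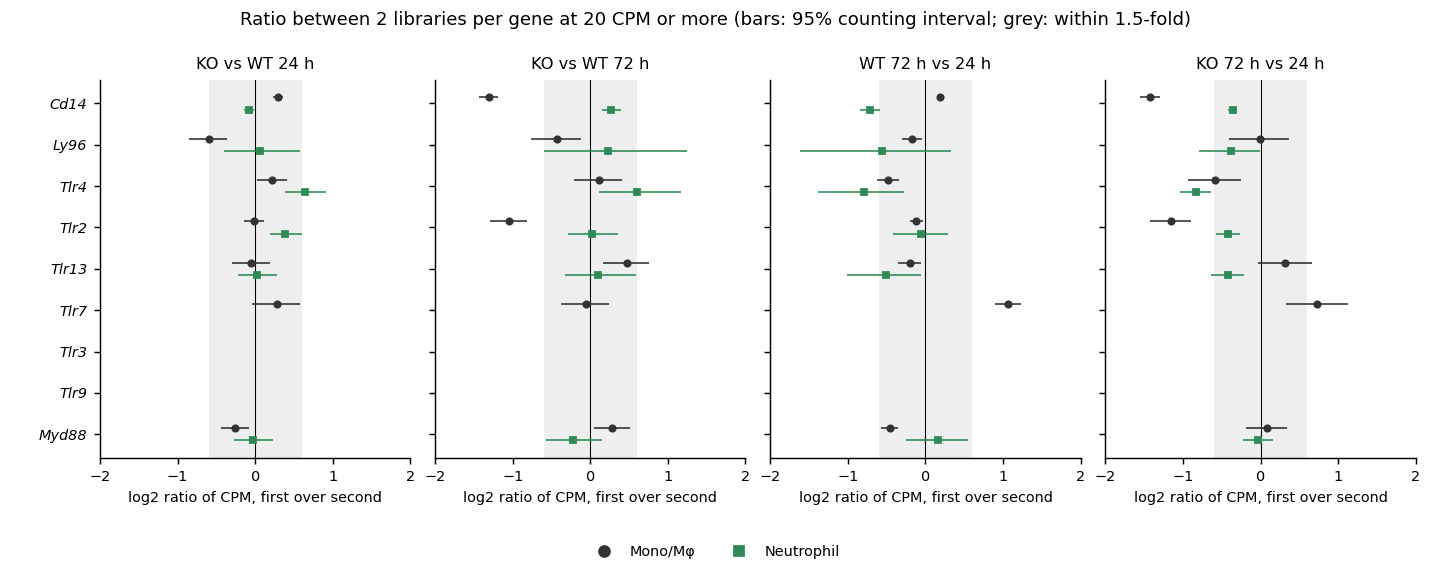
Log2 ratios of CPM between 2 libraries for each gene at 20 CPM or more, in mono/Mφs (circles) and neutrophil-like cells (squares), with 95% counting intervals and the 1.5-fold limits in grey. Cd14 and Tlr2 of mono/Mφs stood at -1.31 and -1.05 in CCR2 KO against WT at 72 h, while the same genes in neutrophil-like cells stood at 0.27 and 0.03.

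In thinned neutrophil-like cells Tlr2 was read more often beside Cd14 than without it. A Tlr2 UMI was found in 54 of 211 cells with Cd14 (25.6%, 19.9 to 32.0%) and 9 of 72 without it (12.5%, 5.88 to 22.4%) in WT 24 h, and in 237 of 867 (27.3%, 24.4 to 30.4%) and 68 of 393 (17.3%, 13.7 to 21.4%) in CCR2 KO 24 h. The 72 h libraries gave 22.4 against 10.3% and 19.9 against 10.97%. Tlr4 was found in 15.2 against 13.9% and 24.2 against 22.9% in the 24 h libraries, and in 10.5 against 5.17% and 18.98 against 8.39% at 72 h. In mono/Mφs Tlr2 was found in 17.1 against 12.6% of WT and 16.3 against 9.60% of CCR2 KO cells at 24 h and in 17.05 against 11.7% of WT cells at 72 h, whereas in CCR2 KO 72 h none of the 26 cells with Cd14 held Tlr2, which allows up to 11.5%, beside 5 of 103 without it. These are shares of cells of 1 library with no test.

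Among other genes of the pathway in mono/Mφs, most inflammatory targets were lower at 72 h than at 24 h. Their counts, and those of the gene groups that follow, stand beside the shares of all genes given above for each comparison, which between times were 17.0% lower in WT and 12.1% lower in CCR2 KO, and for CCR2 KO against WT 6.02% higher and 5.66% lower at 24 h and 16.2% higher and 7.83% lower at 72 h. From 24 h to 72 h, 14 of 15 measured targets were lower in WT and 15 of 15 in CCR2 KO, with median log2 ratios of -1.68 and -3.16. They included Ccl2, the ligand of Ccr2, from 5257 to 610 CPM in WT and from 9692 to 1825 CPM in CCR2 KO, and Cxcl2, which attracts neutrophils, from 1386 to 411 and from 1666 to 249 CPM. Il1b, a cytokine, went from 1380 to 843 and from 1791 to 700 CPM. In CCR2 KO against WT, 7 of 15 targets were higher and 1 lower at 24 h, and 2 of 10 higher and 7 lower at 72 h. At 24 h Ccl4 stood at 2240 against 765 CPM and the acute phase gene Saa3 at 487 against 3464 CPM, and at 72 h Ccl3 stood at 184 against 357 CPM with Ccl2 opposite, at 1825 against 610 CPM.

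Inhibitors of the pathway were mostly lower in CCR2 KO mono/Mφs at 72 h. In CCR2 KO against WT at 72 h 7 of 12 measured negative regulators were lower and 1 higher, among them Nfkbia (the inhibitor of NF-κB, 178 against 425 CPM), Dusp1 (a MAP kinase phosphatase, 314 against 667 CPM), Socs3 (129 against 281 CPM) and Nfkbiz (145 against 290 CPM). At 24 h 0 of 13 were higher and 1 lower. Of these, at least Dusp1 and Nfkbia are also known to respond to dissociation, whose gene list moved with this comparison as given above. The part of dissociation in the values of all the named inhibitors was not tested. From 24 h to 72 h, 2 of 13 were higher and 4 lower in WT and 0 of 12 higher and 8 lower in CCR2 KO.

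Accessory and trafficking proteins moved one by one. Cd36, a scavenger receptor that works with Tlr2, was higher in CCR2 KO at both times, 240 against 40.5 CPM at 24 h and 251 against 48.1 CPM at 72 h. Unc93b1, the escort of endosomal receptors, was 887 in WT 72 h against 519 CPM in WT 24 h and 517 CPM in CCR2 KO 72 h. Hsp90b1, a chaperone of the receptors, was 573 CPM in WT 72 h, below the 1169 CPM of WT 24 h and the 1326 CPM of CCR2 KO 72 h, and Ly86 was 1010 CPM in WT 72 h against 393 CPM in WT 24 h. In all, 1 of 7 was higher and 0 lower at 24 h and 2 higher and 2 lower at 72 h in CCR2 KO against WT, and 2 higher and 1 lower in WT and 1 higher and 0 lower in CCR2 KO between times.

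The counts of the signalling core differed from list to list. Of 12 kinases and ubiquitin ligases 1 was higher and 1 lower at 24 h and 1 higher and 2 lower at 72 h in CCR2 KO against WT, and between times 1 of 13 higher and 2 lower in WT and 1 of 12 higher and 2 lower in CCR2 KO. Ikbke, the kinase of the interferon branch, was 121 CPM in WT 24 h against 64.4 in CCR2 KO 24 h and 56.8 in WT 72 h. Of 9 transcription factors 1 was lower at 24 h and 4 at 72 h in CCR2 KO against WT, with Irf7 at 159 against 275 CPM and 101 against 207 CPM, and 0 were lower in WT and 3 in CCR2 KO between times. Of the 6 other Toll-like receptors Tlr1, the partner of Tlr2, was the one measured, at 80.1, 55.6, 67.6 and 45.2 CPM with no ratio past the fold. Of 5 further adaptors none was measured in 2 of the comparisons and 2 in the others, where Ticam2, the bridge from Tlr4 to Ticam1, was lower in CCR2 KO at 72 h (11.1 against 21.5 CPM) and higher at 72 h in WT (21.5 against 9.68 CPM). Tlr1 and Ticam2 were named after their values were seen. Of 8 measured genes for endogenous ligands, 2 were higher and 3 lower at 24 h and 3 higher and 4 lower at 72 h in CCR2 KO against WT, and 2 were higher and 3 lower between times in each genotype. S100a8 among them (355 against 40.7 CPM in WT and CCR2 KO at 24 h) is also a neutrophil marker of the gate. The ligand list also holds S100a9, a further such marker, and Hspa1a and Hspa1b, which are among the dissociation genes. Their part in these counts was not tested.

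In neutrophil-like cells 7 of 14 targets were lower and 2 higher at 72 h in WT, and 11 of 13 lower and 0 higher in CCR2 KO, beside 9.38 and 9.47% of all genes lower. Ccl4 went from 3330 to 1438 CPM in WT and from 6119 to 1038 CPM in CCR2 KO, and Cxcl2 from 16480 to 10910 and from 16520 to 9263 CPM. In CCR2 KO against WT 7 of 14 were higher and 3 lower at 24 h, with Ccl3 at 4177 against 2453 CPM, and 1 of 12 higher and 2 lower at 72 h, with Il1b at 13800 against 20940 CPM. Negative regulators were 1 higher and 2 lower of 12 at 24 h, 3 higher and 2 lower at 72 h, 1 higher and 3 lower between times in WT, and 0 higher and 6 lower in CCR2 KO. In the same order, kinases were 3 higher and 2 lower of 14, 2 and 3 of 15, 6 and 2 of 15 (43.0% of all genes being higher there), and 3 and 4 of 15, and transcription factors 1 and 0, 0 and 1, 0 and 3, and 0 and 4 of 8. Accessory genes were 0 and 0, 0 and 0, 1 and 2, and 0 and 1 of 4, adaptors 1 and 0, 0 and 1, 1 and 0, and 0 and 1 of 2, and endogenous ligands 1 and 3 of 5, 1 and 1 of 5, 2 and 1 of 6, and 3 and 0 of 4. Among these, Irf7 went from 393 to 132 CPM in WT and from 465 to 165 CPM in CCR2 KO, and Ikbke from 379 to 28.8 and from 173 to 75.0 CPM. The other Toll-like receptor measured in these cells, Tlr6, a further partner of Tlr2, stood at 43.4, 62.8, 37.4 and 43.3 CPM with no ratio past the fold, and was named after its values were seen.

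The genes most like each member were sought over 23 sums of a class in a library, among 9792 genes, by Pearson's r of log2(CPM + 10). Cd14 was most like Bst1 (0.975), Igsf6 (0.968) and Pla2g7 (0.966), Tlr4 most like C3 (0.972), Hk3 (0.967) and Clec4d (0.956), and Tlr2 most like Ptafr (0.967), Fth1 (0.964) and Wfdc17 (0.958). Tlr13 went with Carhsp1 (0.979), Tpd52 (0.977) and Gabarap (0.971), and Myd88 with Atp6v1g1 (0.948), Rasgrp4 (0.948) and Pmaip1 (0.940). Tlr7 was most like C1qa (0.963) and Apoe (0.938), and Tlr3 most like Ptgis (0.944), Xcr1 (0.940) and Fzd1 (0.930), where C1qa, Apoe and Xcr1 are markers of the gate. Ly96 had no gene above 0.845, the value for Slc11a1, followed by Galc (0.839) and Fcgr4 (0.836). The sums share libraries and depth, so these values describe likeness of pattern only.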

How the data were processed

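The authors deposited raw UMI counts per gene and cell, 1 table per library, made per the labels with the 10x 3′ v3 kit and Cell Ranger 3.0.2 on GRCm38/mm10. Cells had at least 250 genes and at most 9.99% mitochondrial UMIs. Whether doublets were removed before deposit is not given in the sources used here. Scrublet called 11 of 5797 cells (0.19%), too few to have worked, and doublets were kept.

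Each cell went to the class with the highest marker score (at least 2 markers, score 0.1, margin 0.05 to the next), and 120 cells had no class and 198 lay within 2 margins of another. Counts were summed per class and library and given as CPM with exact Poisson intervals, ratios with exact conditional binomial intervals and shares with exact (Clopper-Pearson) ones, using scipy 1.17.1. No test was run. A count of 0 was read as allowing up to 3 counts. The ratios, their intervals and the TMM factor were tested on simulated Poisson counts of whole libraries. The gate, thinning, subsets and clusters were not tested in this way. Levels are given for classes of 20 cells or more, and for cDC1 at 19. Pathway genes are named if past 1.5-fold and at 100 CPM, at most 4 a list with the highest level, and lists too short for this are given as counts. The 3 genes most like each member are named, except 1 that is not reported here. The genes, the marker and pathway lists and the rules were chosen with earlier results of these data known. Tried alternatives were clusters in place of the gate, a doubled margin, a 5% mitochondrial limit, TMM scaling, equal weight per cell, no minimum level, a prior of 5 UMIs, thinning to 2000 UMIs or none, Scrublet calls removed and, chosen after the data were seen, the top 5% of Scrublet scores removed and mono/Mφs with at most 1 S100a8 or S100a9 UMI. Ratios within a single cluster (Leiden, numbered from 0) were also added after the data were seen.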

Additional observations from a re-analysis of the deposited data

Results flagged for a closer look

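In 3 cases the CCR2 KO against WT ratio had opposite signs at 24 h and 72 h with both counting intervals off 0, and the difference between the times was not tested because each group was 1 library. The log2 ratio of Cd14 in mono/Mφs was lower at 72 h than at 24 h by 1.61 (-1.61 as 72 h minus 24 h), with WT at 587 and 668 CPM and CCR2 KO at 721 and 269 CPM. For Myd88 in mono/Mφs it was higher at 72 h by 0.541, and for Cd14 in neutrophil-like cells by 0.358. Neither passed 1.5-fold at either time, except Myd88 at 72 h with at most 5% mitochondrial UMIs (0.74). Within a cluster the Cd14 ratio of neutrophil-like cells at 24 h was -0.02 (-0.18 to 0.15) in cluster 1, 0.23 (0.04 to 0.43) in cluster 2 and 0.44 (0.35 to 0.53) in cluster 7. The lower Cd14 of the CCR2 KO class at 24 h was thus not seen beyond counting error within these clusters.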

How the results depend on the processing

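No paired analysis was possible because there was 1 library per group. The count of members past 1.5-fold in mono/Mφs, CCR2 KO against WT at 24 h, went from 1 to 0 with at most 5% mitochondrial UMIs, with every cell weighed the same and with a prior of 5 UMIs, and to 2 with no minimum level. At 72 h it went from 2 to 4 with at most 5% mitochondrial UMIs. The members added there, Myd88 (0.74) and Tlr13 (0.63), were higher in CCR2 KO, opposite to Cd14 and Tlr2. For WT between times it went from 1 to 3 under TMM scaling and 2 with no minimum level, and for CCR2 KO between times from 3 to 5 with at most 5% mitochondrial UMIs and to 5 with no minimum level. In neutrophil-like cells the count of lower members between times went from 2 to 4 in WT under TMM scaling and with every cell weighed the same, and from 1 to 5 in CCR2 KO under TMM scaling. With no minimum level 2 were higher and 2 lower there, and 1 was lower in CCR2 KO against WT at 24 h. The 1 member higher in CCR2 KO, Tlr4, was not past the fold at 24 h with every cell weighed the same, nor at 72 h with clusters, a doubled margin, a prior of 5 UMIs or the top 5% of Scrublet scores removed. Why was not tested. No ratio past the fold changed sign under any alternative run; 13 ratios that were not past it did under at least 1. In mono/Mφs the Cd14 ratio between CCR2 KO times ranged from -1.66 (TMM scaling) to -0.91 (at most 1 S100a8 or S100a9 UMI). The Tlr2 ratio between WT times in neutrophil-like cells went from -0.05 to 0.56 with clusters in place of the gate. Of the 36 pairs of a member and a library, the class with the highest level was the same in 32 with clusters, in 35 with a doubled margin and in 36 with Scrublet calls removed. Tlr9, and Tlr3 outside cDC1, were too sparse to compare.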
